A study of Arabidopsis thaliana with 4 samples.

Results

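The contrast described here is the genotype by auxin interaction in *Arabidopsis* seedling roots, that is, how far the change of each transcript after NAA in WT differed from its change after NAA in *arf7*. The data come from roots of seedlings 8 days old, and each of the 4 conditions had 1 library. WT-Mock and WT-NAA came from the Col-0 accession without and with naphthalene acetic acid, a synthetic auxin that enters cells without an uptake carrier. *arf7*-Mock and *arf7*-NAA came from the T-DNA insertion mutant Salk_040394 in the same background, under the same treatments. The study's methods give the dose as 10 μM for 4 h. The labels describe seedlings kept in the dark, whereas the methods describe a greenhouse with a photoperiod, and neither source says how many plants were pooled. For each transcript model (one annotated splice form of a gene), reads were divided by the total of their library, and the log2 ratio of *arf7*-NAA to *arf7*-Mock (the *arf7* arm) was subtracted from the log2 ratio of WT-NAA to WT-Mock (the WT arm). A positive interaction value therefore means a larger NAA/Mock ratio in WT, and a negative value a larger ratio in *arf7*. Models entered when they had at least 20 reads in every library, which held for 13680 of the 27307 models with any read (13611 of 23425 genes). These models took 98.9% of all reads. Of the 13627 models outside, 11833 stayed under 20 reads everywhere, and 1794 reached 20 reads in some libraries but not in all.

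Auxin acts on transcription by releasing auxin response factors from their Aux/IAA repressors. Auxin binds the TIR1/AFB receptors together with an Aux/IAA protein, the repressor is degraded, and the freed factor can act at its target promoters. ARF7 is one of the activating factors, and in roots it is best known, with ARF19, for switching on LBD genes in the pericycle cells that found lateral roots.

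*ARF7* itself (annotated as *NPH4*) had 5 reads for its main model in WT-Mock and 12 in WT-NAA, then 8 in *arf7*-Mock and 3 in *arf7*-NAA. Counts this small give no check of the genotype label. All values below that are listed without names follow this order of libraries. *PRH1*, the pathogenesis-related protein gene that the study followed up (annotated as *PR-1-LIKE*), had 25, 76, 4 and 11 reads. Its levels were 4.68, 14.5, 0.785 and 2.22 RPKM, where RPKM stands for reads relative to transcript length and to the library total. It lay outside the 20-read rule, and its interaction value of 0.13 (95% counting interval -1.64 to 1.91) could not be told from 0 at this depth. The tissue label was checked with markers of root cells. Of 8 such markers 7 had at least 20 reads in every library, such as the auxin efflux carrier *PIN2* (annotated as *EIR1*) with 91.0, 106, 107 and 108 RPKM, and *GL2*, which marks the hairless cells of the epidermis, did not.

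Promoter sequences of 5 genes that stand for the main groups of the contrast are shown first, since genes of some groups had interaction values of the same sign. Each window runs from 250 bases before the annotated start of the gene through its first 50 bases in the RefSeq annotation of TAIR10.1, 300 bases in all, and is written 5′ to 3′ on the strand of the gene. Capitals mark matches, on either strand, to any of 9 short motifs, which are given after the sequences.
*RRTF1*, a redox-responsive ERF factor gene with the highest value of the contrast, chr4:16451626-16451925, plus strand: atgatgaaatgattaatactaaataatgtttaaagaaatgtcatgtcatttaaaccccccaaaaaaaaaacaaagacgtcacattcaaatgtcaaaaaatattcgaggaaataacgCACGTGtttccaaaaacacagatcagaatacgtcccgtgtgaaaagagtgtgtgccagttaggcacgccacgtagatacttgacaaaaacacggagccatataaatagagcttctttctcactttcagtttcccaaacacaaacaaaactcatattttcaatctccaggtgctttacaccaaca
*AIR1*, an auxin-induced gene of root cells, chr4:7438865-7439164, plus strand: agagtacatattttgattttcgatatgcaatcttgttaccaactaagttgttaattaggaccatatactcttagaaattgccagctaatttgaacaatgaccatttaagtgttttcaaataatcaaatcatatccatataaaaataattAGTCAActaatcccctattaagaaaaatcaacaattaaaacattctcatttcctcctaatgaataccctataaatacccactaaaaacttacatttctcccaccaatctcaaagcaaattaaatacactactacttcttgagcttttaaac
*NUDT21*, a Nudix hydrolase gene, chr1:27646694-27646993, minus strand: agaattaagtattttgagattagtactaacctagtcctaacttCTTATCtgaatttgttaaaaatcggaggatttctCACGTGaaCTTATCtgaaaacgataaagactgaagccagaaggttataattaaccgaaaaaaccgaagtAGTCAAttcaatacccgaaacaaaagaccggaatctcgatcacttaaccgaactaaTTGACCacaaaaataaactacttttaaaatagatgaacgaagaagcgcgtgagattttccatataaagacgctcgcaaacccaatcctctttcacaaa
*CYP81F2*, an indole glucosinolate hydroxylase gene with the lowest value of the contrast, chr5:23187590-23187889, plus strand: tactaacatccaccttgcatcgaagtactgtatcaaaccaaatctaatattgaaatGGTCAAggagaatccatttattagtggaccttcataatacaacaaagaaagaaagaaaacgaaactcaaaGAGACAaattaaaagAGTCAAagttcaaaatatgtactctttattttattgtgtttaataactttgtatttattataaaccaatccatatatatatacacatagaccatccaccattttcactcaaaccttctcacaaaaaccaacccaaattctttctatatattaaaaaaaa
*PSAD-1*, a photosystem I subunit gene, chr4:1230115-1230414, minus strand: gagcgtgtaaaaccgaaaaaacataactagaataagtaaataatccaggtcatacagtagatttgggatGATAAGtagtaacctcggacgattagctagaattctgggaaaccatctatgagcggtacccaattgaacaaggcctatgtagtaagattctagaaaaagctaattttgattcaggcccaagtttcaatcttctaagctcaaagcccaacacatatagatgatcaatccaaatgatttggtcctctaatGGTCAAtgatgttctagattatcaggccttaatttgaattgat

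The motifs searched were TGTCTC and TGTCGG (auxin response elements), CACGTG (the G-box), TTGACC and TTGACT (W-box forms, the sites known for WRKY factors), GCCGCC (the GCC box of ERF factors), GAANNTTC (the core of heat shock elements), CGCGTT (the rapid stress response element) and GATAAG (the I-box of light-regulated genes). CACGTG and GAANNTTC read the same on both strands and were counted once. TGTCTC was in 14.2% of all 27444 protein-coding promoters, in 13.5% of 13371 promoters of tested genes, in 13.8% of 275 promoters of genes called above 0 (defined in the next paragraph) and in 9.84% of 183 promoters of genes called below 0. In the same order the shares for TGTCGG were 5.12%, 5.61%, 5.09% and 6.56%. The auxin response elements TGTCTC and TGTCGG thus had shares in genes called above close to those in the tested genes. CACGTG was in 7.68%, 8.50%, 12.4% and 8.2%, and CGCGTT in 3.40%, 3.67%, 5.82% and 3.83%, both most frequent in genes called above. GATAAG was in 14.6%, 14.1%, 14.5% and 24.0%, TTGACC in 14.2%, 14.7%, 13.5% and 19.1%, and GCCGCC in 2.57%, 2.68%, 2.55% and 4.92%, all most frequent in genes called below. TTGACT was in 21.8%, 22.7%, 25.1% and 24.0%, and GAANNTTC in 11.6%, 11.1%, 14.5% and 15.3%, more often in both called sets than in the tested genes. Of the 11 photosynthesis genes called below, 6 held GATAAG and 4 CACGTG. Of the 14 touch, wound and early stress genes called above, 6 held TTGACT, 3 GCCGCC and 3 CACGTG, and of the 7 heat shock genes called above 2 held GAANNTTC. The same 14 touch, wound and early stress genes also held the I-box in 4, the core of heat shock elements in 3 and the rapid stress response element in 1. Their shares for the I-box and the heat shock core were thus also above those of the tested genes. A motif named for 1 group was therefore not particular to it. All these shares are descriptions with no test, and a match is not a bound site.

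A model was called when its interaction value was at least 1 or at most -1, which is a 2-fold difference between the NAA responses, and its 95% counting interval left out 0. The interval comes from the read counts of the 4 libraries and covers counting error only. There was no replicate check, since each condition had 1 library, and a call compares these 4 libraries and not the conditions. By this rule 280 models (2.05% of those tested) were called above 0 and 190 (1.39%) below 0. The median over all 13680 models was -0.001, the middle of the distribution ran from -0.21 to 0.22 (quartiles), and the range was -3.99 to 3.73. When a biological coefficient of variation of 0.2 was assumed and added to the counting error, 117 models above and 80 below were still called, and with 0.4 only 16 and 9. The interval lay wholly past 2-fold for 71 models above and 36 below.

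Most called models had arms of opposite sign, which a call on the difference of the arms favours by itself. Among those called above, 256 of 280 had a positive WT arm with a negative *arf7* arm, 18 had both arms positive and 6 both negative. Their median WT arm was 0.67 and their median *arf7* arm -0.67. Among those called below, 159 of 190 had a negative WT arm with a positive *arf7* arm, 28 had both negative and 3 both positive, and the medians of the arms were -0.71 and 0.56. Both arms had counting intervals off 0 and opposite signs in 132 models called above and 62 called below. The libraries that held the highest and lowest levels were also largely set by the call. A positive value needs WT-NAA and *arf7*-Mock to be high relative to WT-Mock and *arf7*-NAA, and a negative value needs the reverse. The counts that follow are therefore descriptions and not separate findings. Among the models called above, the highest of the 4 levels was in WT-NAA for 160 and in *arf7*-Mock for 119. Their lowest level was in *arf7*-NAA for 151 and in WT-Mock for 123. Among those called below, the highest level was in WT-Mock for 120 and in *arf7*-NAA for 68. The lowest level of those called below was in WT-NAA for 102 and in *arf7*-Mock for 87.

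**Figure D1:**
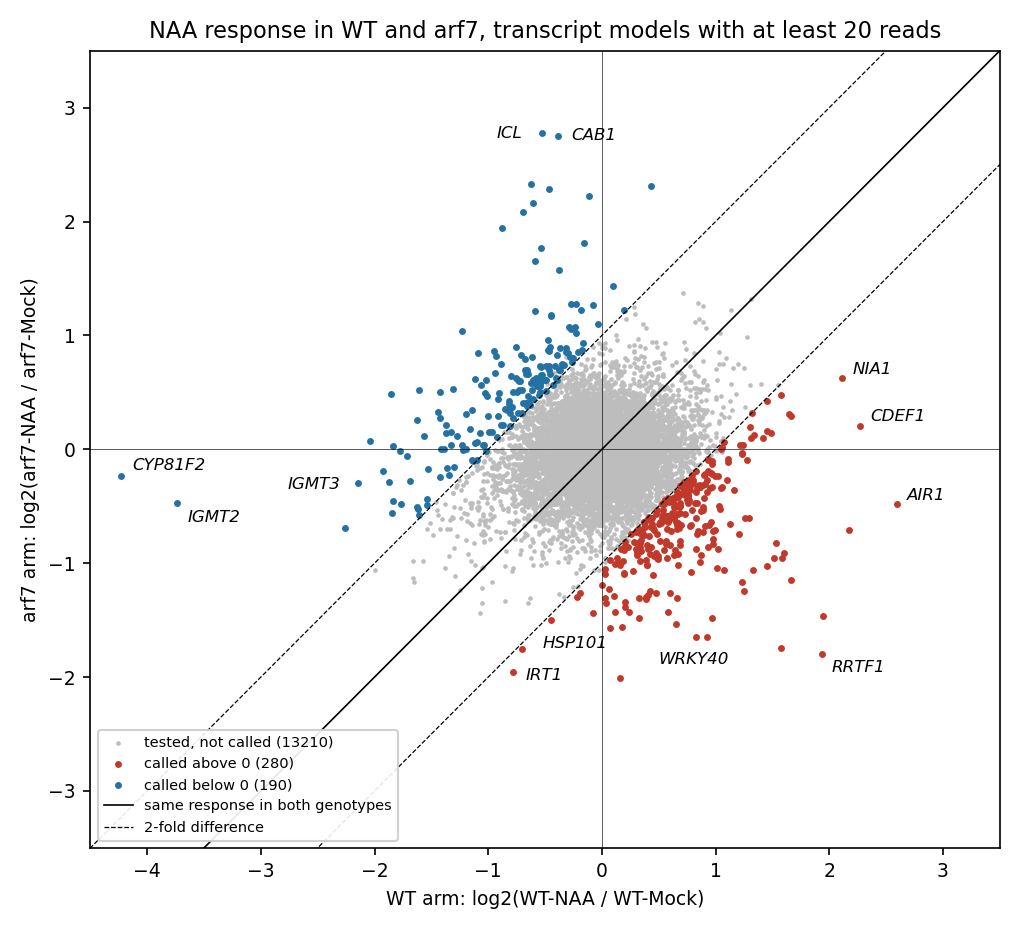
Each point is a transcript model with at least 20 reads in every library, with its WT arm (log2 of WT-NAA over WT-Mock) on the x axis and its *arf7* arm (log2 of *arf7*-NAA over *arf7*-Mock) on the y axis. The solid line marks equal responses and the dashed lines a 2-fold difference. The 280 red models called above lie mostly at the lower right, with opposite arms, and the 190 blue models called below mostly at the upper left. *ICL* and *CAB1* stand apart there by their *arf7* arm. *CYP81F2* and *IGMT2*, with both arms negative, stand apart at the lower left by their WT arm.

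The Aux/IAA and GH3 lists of early auxin genes are short. Over all tested genes 2.05% were called above and 1.37% below, so a short list without calls is near these shares. None of 14 tested Aux/IAA repressor genes (28 listed) and none of 6 tested GH3 genes (10 listed), which encode enzymes that conjugate auxin to amino acids, was called, and the medians were 0.16 and 0.29. *IAA1* had the highest Aux/IAA value, with 46, 64, 56 and 40 reads and an interaction of 0.95 (0.15 to 1.75). *IAA14*, the repressor known from the lateral root mutant *solitary-root*, had 6.86, 13.0, 8.68 and 9.41 RPKM, so that its WT-NAA level was the highest and the other 3 libraries lay close together, and its interaction was 0.81 (0.23 to 1.38). *IAA16*, with the most reads of the family, was at -0.03. *GH3.3* had 5.86, 10.9, 45.5 and 109 RPKM. It was far higher in both *arf7* libraries, and its level was higher with NAA in each genotype, so that the arms of 0.89 and 1.26 gave an interaction of only -0.37 (-0.75 to 0.02). *WES1* (GH3.5) with 43.8, 69.9, 13.2 and 13.6 RPKM had an interaction of 0.64 (0.33 to 0.94), and *DFL1* (GH3.6) had 0.70 (0.40 to 1.00).

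Tested regulators of lateral root formation were likewise not called in either direction. For so few genes this is near the shares over all tested genes, 2.05% above and 1.37% below. Of 25 listed 15 were tested, with a median of -0.03 and values from -0.61 to 0.81. *LBD16*, a direct ARF7 target in the literature of lateral root initiation, had 15.8, 20.2, 11.4 and 15.1 RPKM and arms of 0.35 and 0.40, which gave an interaction of -0.05 (-0.57 to 0.46). *LBD29* had 30, 78, 4 and 7 reads and stayed outside the rule, like *PRH1*: both had higher counts in the WT libraries than in the *arf7* libraries. The rule leaves out genes with few reads in *arf7*, whatever their WT arm, so the absence of calls says nothing about such genes. *ARF19* was at 0.28 (0.06 to 0.51). Of 17 tested genes of auxin transport and perception (19 listed) 1 (5.88%) was called below and none above. This was the influx carrier gene *LAX1*, with 3.60, 2.27, 2.13 and 2.82 RPKM and an interaction of -1.07 (-1.99 to -0.16). Of 15 tested SAUR genes, early auxin genes linked to cell expansion, 2 (13.3%) were called above, AT4G34760 at 1.39 and AT3G12830 at 1.3.

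*AIR1*, which encodes a small cysteine-rich protein of the lipid transfer type and was first isolated as an auxin-induced gene of roots, had 1255, 7421, 480 and 334 reads, or 240, 1448, 96.1 and 68.8 RPKM. WT-NAA stood apart from the other 3 libraries, and both *arf7* libraries lay below WT-Mock. The WT arm was 2.59 and the *arf7* arm -0.48, so the interaction was 3.08 (2.86 to 3.29). Of the 9 listed genes of its tandem cluster on chromosome 4, *AIR1* included, 6 were tested. The neighbour AT4G12545 was also called, with 115, 241, 88.2 and 89.5 RPKM and 1.04 (0.80 to 1.28). AT4G12510 (0.63) and AT4G12520 (0.52) had smaller values, and the defence-related members *EARLI1* (0.10) and *AZI1* (-0.24) lay near 0. Reads that match several copies were not counted by the authors, so values of near-identical members of this cluster are uncertain.

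Genes of touch, wound and early stress responses gave the most calls above 0 of all lists. These are genes for transcription factors, calcium sensors and wall enzymes that respond within minutes to handling, wounding or elicitors, and their transcripts are known to turn over fast. Of 48 listed 32 were tested, 14 (43.8%) were called above and none below, beside 2.05% and 1.37% of all tested genes. Their median interaction was 0.88, and 27 of the 32 values were positive. The median WT arm was 0.33 and the median *arf7* arm -0.65. This list and the others were chosen with earlier results of these data known. Their shares beside all tested genes are therefore descriptions only.

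*RRTF1* (*ERF109*), an ERF factor gene known to link jasmonate to auxin synthesis in roots, had 61, 228, 175 and 49 reads, or 5.82, 22.2, 17.5 and 5.04 RPKM. WT-NAA and *arf7*-Mock were high, and WT-Mock and *arf7*-NAA were low by a similar amount. The arms were 1.93 and -1.80 and the interaction 3.73 (3.11 to 4.34), a 13.2-fold difference between the responses. *WRKY40*, a gene for a repressor of defence and abscisic acid responses, was also high in WT-NAA and *arf7*-Mock, here with *arf7*-Mock above WT-NAA, at 29.2, 51.9, 56.8 and 18.1 RPKM and a value of 2.48 (2.14 to 2.82). The zinc finger gene *STZ* (*ZAT10*) had 209, 380, 254 and 127 RPKM and 1.86 (1.71 to 2.01). *TCH4*, a touch-induced xyloglucan endotransglucosylase gene, had 67.9, 92.8, 109 and 50.6 RPKM and 1.55 (1.31 to 1.79). In all 4 genes *arf7*-NAA was the lowest library and WT-Mock the next.

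The other called members were the ERF genes AT5G51190 (2.14), *ERF11* (1.90), *ERF5* (1.1) and *ERF6* (1.09), *WRKY46* (1.97), the calmodulin-like genes *CML37* (1.81) and *TCH2* (1.06), and the zinc finger genes *SZF1* (1.53), *RHL41* (1.31) and *ZAT6* (1.04). AT5G51190 had 114, 241, 144 and 68.9 RPKM, and WT-NAA was the highest library. *CML37* had 22.5, 28.3, 27.6 and 9.90 RPKM, and *arf7*-NAA was the single low library. The 18 tested members without a call had values from -0.23 in *WRKY6* to 0.90 in *ERF-1*. *WRKY33*, the member with the most reads, had 3869, 2361, 2651 and 1621 reads, lower with NAA in both genotypes, and an interaction of -0.01, and *WRKY70* was also at -0.01. Members outside the 20-read rule included *ORA47* with 26, 116, 63 and 18 reads and AT1G19210 with 10, 66, 34 and 13 reads.

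Several of the highest values outside that list had the same order of levels. AT1G50750, a plant mobile domain gene, had 6.53, 25.2, 14.0 and 5.08 RPKM and an interaction of 3.42 (2.98 to 3.85). *RTFL12*, of a family of small peptides that restrict cell division when overproduced, had 20.1, 60.0, 42.4 and 12.7 RPKM and 3.32 (2.66 to 3.98). *NUDT21*, whose promoter is shown above, had 41.7, 133, 86.1 and 38.8 RPKM and 2.82 (2.53 to 3.10). WT-NAA was the highest and *arf7*-Mock the second highest library in all 3 genes. The deadenylase gene *CAF1a*, which acts in messenger RNA decay, had 55.4, 166, 82.2 and 42.4 RPKM and 2.53 (2.28 to 2.79). The protein phosphatase 2C gene AT2G30020 had 33.4, 101, 67.4 and 35.7 RPKM and 2.51, and the EF-hand calcium-binding gene AT4G27280 had 137, 325, 202 and 85.4 RPKM and 2.49. AT4G29780, of unknown function in the files, had 40.7, 111, 65.9 and 32.5 RPKM and 2.47 (2.26 to 2.68). Another of the 12 highest values was that of AT4G27654, also of unknown function, with 21, 93, 47 and 28 reads and 2.88 (1.92 to 3.84), beside *MAM1*, which is described with the glucosinolate genes.

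**Figure D2:**
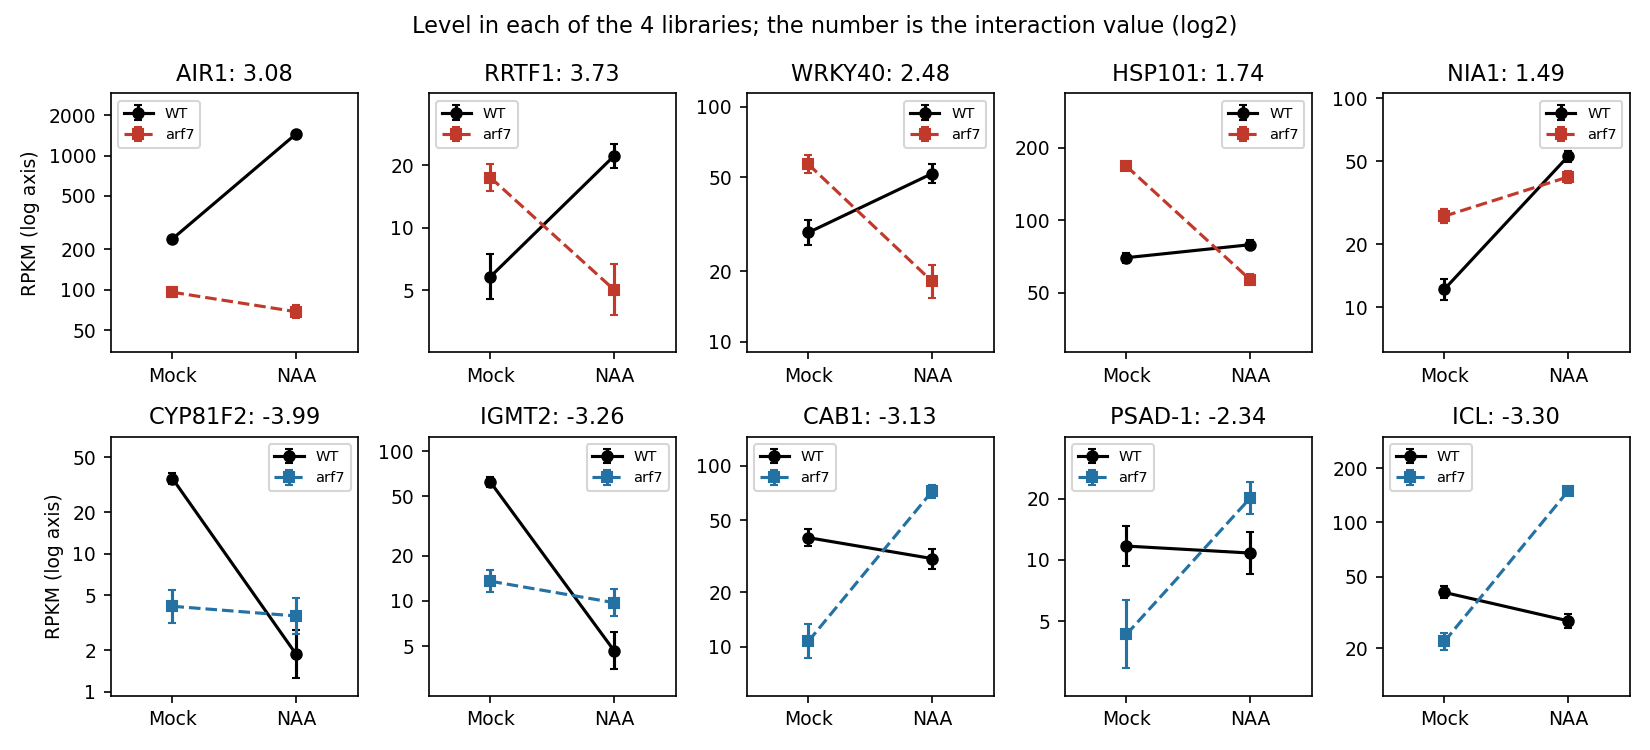
Levels of 10 genes in the 4 libraries, in RPKM on log axes that differ between panels, with black circles for WT and coloured squares for *arf7*. Bars are 95% counting intervals of the single library, and the number above each panel is the interaction value. The WT and *arf7* lines cross in all panels but *AIR1*, where *arf7* lies below WT in both conditions.

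Heat shock genes also had positive values, and here the *arf7*-Mock library was the high one. Of 21 listed 11 were tested, and 7 (63.6%) were called above and none below, beside 2.05% and 1.37% of all tested genes. All 11 values were positive, and the median was 1.1, in a list likewise chosen with earlier results of these data known. *HSP101*, a chaperone that dissolves protein aggregates, had 69.9, 79.2, 167 and 56.8 RPKM. The WT libraries differed little (WT arm 0.18), *arf7*-Mock was far above the other 3, and the interaction was 1.74 (1.61 to 1.87). *MBF1C*, a gene for a coactivator of the heat response, had 68.8, 79.2, 119 and 45.4 RPKM and 1.59 (1.27 to 1.91). *HSP90.1* had 282, 449, 688 and 439 RPKM and 1.32 (1.26 to 1.39), and the *HSP70* gene AT3G12580 had 554, 948, 1273 and 1021 RPKM and 1.09 (1.05 to 1.14). In both of these WT-Mock was the lowest library. The constitutive *HSC70-1*, by contrast, had 811, 969, 813 and 949 RPKM and an interaction of 0.03 (-0.01 to 0.08). The other called members were AT5G48570 (1.41), AT1G07400 (1.39) and AT5G51440 (1.1).

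Lists of hormones other than auxin were short and gave at most 2 calls each, beside 2.05% above and 1.37% below of all tested genes. The shares called above were 20% of ethylene and gibberellin enzyme genes, 14.3% of jasmonate synthesis genes and 28.6% of JAZ repressor genes. *ACS6*, whose product makes the ethylene precursor and is stabilised in stress signalling, had 43.9, 88.6, 73.3 and 35.6 RPKM and an interaction of 2.06 (1.84 to 2.27). *ACS5* had 2.25, 6.32, 5.01 and 5.54 RPKM, with WT-Mock the low library, and 1.35 (0.59 to 2.1). These were the only calls among 10 tested ethylene and gibberellin enzyme genes of 18 listed, whose median was 0.35. Of the 7 tested jasmonate synthesis genes (16 listed) *AOC3* was called, with 64.0, 110, 106 and 82.7 RPKM and 1.14 (0.91 to 1.36). Of the 7 tested JAZ repressor genes (12 listed) *JAZ3* (1.12) and *JAZ5* (1.05) were called, and *JAZ12*, with the most reads, was at 0.01. *JAZ5* rested on 29, 32, 51 and 27 reads, and 1 of the 2 JAZ calls was lost when 5 reads were added to every count. *MYC2*, the master regulator gene of jasmonate responses, had 95.2, 161, 129 and 97.0 RPKM and 1.17 (1.04 to 1.3). None of 7 tested type-A response regulators of cytokinin signalling was called, with a median of 0.35.

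Among nitrate genes *NIA1* and *NRT1.1* were called above, both with a WT arm larger in size than the *arf7* arm. *NIA1*, a nitrate reductase gene, had 12.2, 52.6, 27.3 and 42.0 RPKM. WT-Mock was the lowest library, NAA went with a higher level in both genotypes (arms 2.11 and 0.62), and the interaction was 1.49 (1.25 to 1.73). The nitrate transceptor gene *NRT1.1* had 88.7, 173, 130 and 103 RPKM and 1.29 (1.16 to 1.43). The second nitrate reductase gene *NIA2* was at 0.54 (0.45 to 0.62). Of 21 listed nitrate genes 15 were tested, and these 2 (13.3%) were called above and none below, beside 2.05% and 1.37% of all tested genes. The median was 0.25, and 14 values were positive.

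Among iron genes, 5 of 18 tested (29 listed) were called above (27.8%) and 1 below (5.56%), with a median of 0.18. The shares over all tested genes were 2.05% and 1.37%. *IRT1*, the main iron uptake transporter of roots, had 10.3, 5.97, 61.0 and 15.7 RPKM. Its level in *arf7*-Mock was several times that of the other libraries, and it was lower with NAA in both genotypes (arms -0.78 and -1.96), which gave 1.18 (0.65 to 1.70). The ferric reductase gene *FRO2* (1.04), the regulator *BHLH101* (1.40) and the nicotianamine synthase genes *NAS2* (1.20) and *NAS1* (1.13) were the other calls above. *NAS4* had 16.7, 11.6, 24.7 and 38.7 RPKM and was called below at -1.18 (-1.63 to -0.74). *FRU* (FIT), the regulator of *IRT1* and *FRO2*, was at -0.06. No iron gene was called once a biological coefficient of variation of 0.2 was assumed.

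Genes of the endodermis and of wall loosening were split. *CDEF1*, which encodes a cutinase of the GDSL family, had 31.7, 153, 5.67 and 6.55 RPKM. As in *AIR1*, WT-NAA was the high library and both *arf7* libraries lay below WT-Mock, and the interaction was 2.06 (1.52 to 2.60). Of 21 tested suberin and Casparian strip genes (24 listed) 2 (9.52%) were called above, *CDEF1* and *MYB41* (1.12). The 1 called below (4.76%) was *FAR4* (-1.18, from 33, 22, 20 and 30 reads), and the list median was 0.33. Over all tested genes the shares were 2.05% above and 1.37% below. The 5 *CASP* genes, which mark the Casparian strip, had values from 0.49 to 0.94 and none was called. *CASP1* had 213, 378, 239 and 243 RPKM, with WT-NAA the single high library. *CYP86A1*, a suberin hydroxylase gene, had 256, 161, 195 and 244 RPKM and missed the 2-fold line at -0.99 (-1.1 to -0.89).

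In the wall families, 2 of 17 tested expansin genes were called above, *EXPB1* with 31.6, 77.8, 47.6 and 54.5 RPKM and 1.1 (0.82 to 1.39) and *EXPA8* at 1.09, and *EXPB3* was called below at -1.17. Of 18 xyloglucan endotransglucosylase genes 2 were called above, *TCH4* and *XTH17* (1.02), with a family median of 0.40. Of 86 pectin-modifying enzyme genes 6 (6.98%) were called above and none below, beside 2.05% and 1.37% of all tested genes. Their values went up to 1.21 (AT1G70500). Among 31 extensins the only call was AT1G26250, with 75.2, 21.0, 51.6 and 52.7 RPKM and -1.87 (-2.13 to -1.61). WT-NAA was its single low library.

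The lowest value of the contrast belonged to indole glucosinolate modification. Indole glucosinolates are tryptophan-derived defence compounds of the mustard family. *CYP81F2*, which hydroxylates their indole ring, had 459, 24, 52 and 43 reads, or 35.2, 1.88, 4.17 and 3.55 RPKM. WT-Mock stood far above the other 3 libraries, which lay close together. The WT arm was -4.23, the *arf7* arm -0.23 and the interaction -3.99 (-4.83 to -3.16). The methyltransferase genes that act on the next step followed the same order of levels. *IGMT2* had 62.2, 4.67, 13.5 and 9.75 RPKM and -3.26 (-3.83 to -2.69), and *IGMT3* had 132, 29.9, 66.9 and 54.5 RPKM and -1.85 (-2.09 to -1.61). *IGMT1* was at -0.81 and not called, and *IGMT4*, outside the rule, had 34, 1, 2 and 3 reads. The *IGMT* copies are similar in sequence, and unique counting may split their reads unevenly. *PEN3* (AT1G59870), a transporter that exports defence compounds, had 460, 209, 277 and 258 RPKM and -1.03 (-1.09 to -0.98).

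The core of the indole pathway was not called. *CYP79B2*, at its entry, had 1681, 1573, 1804 and 1780 reads and -0.09. Over the 19 tested genes (25 listed) 4 (21.1%) were called below and none above, and the median was -0.24. The shares over all tested genes were 1.37% below and 2.05% above. With at least 50 reads required in every library the list kept 2 calls, *IGMT3* and *PEN3*. *MAM1*, an enzyme of methionine side chain elongation for the aliphatic glucosinolates, had 8.48, 16.1, 16.2 and 5.19 RPKM and was among the 12 highest values at 2.58 (2.05 to 3.10). *CYP71B3*, a cytochrome P450 gene outside these pathways, had 8.61, 2.38, 3.71 and 5.20 RPKM and -2.34 (-3.16 to -1.53). Over 111 tested P450 genes 3 (2.7%) were called above, near the share of all tested genes, and 5 (4.5%) below.

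Photosynthesis genes, which a root expresses only weakly, had the largest share of called members of all lists other than the marker lists. Of 28 listed 13 were tested, and 11 (84.6%) were called below and none above, beside 1.37% and 2.05% of all tested genes. The median was -1.95, with a median WT arm of -0.31 and a median *arf7* arm of 1.57. This list too was chosen with earlier results of these data known. *CAB1*, a chlorophyll-binding protein gene of photosystem II, had 40.1, 30.7, 10.7 and 72.2 RPKM. *arf7*-Mock was the lowest library and *arf7*-NAA the highest, and the interaction was -3.13 (-3.55 to -2.72). *LHCB5* had 13.3, 7.26, 3.43 and 13.2 RPKM and -2.82 (-3.55 to -2.09). The photosystem I gene *PSAD-1*, whose promoter is shown above, had 11.7, 10.8, 4.31 and 20.1 RPKM and -2.34 (-3.11 to -1.56). The plastocyanin gene *DRT112* had 17.9, 12.4, 10.7 and 36.2 RPKM and -2.30 (-2.85 to -1.75). *LHCA2* (-2.78), *PSAG* (-1.97), *PSAF* (-1.95), *LHCA4* (-1.54), *PSBO1* (-1.51), *LHCB4.1* (-1.1) and *LHCB6* (-1.06) completed the calls, and *PSAK* (-0.88) and *PSBR* (-0.79) missed 2-fold. *PSBY* (-2.77) and the Calvin cycle gene *GAPB* (-2.75), not on the list, were also among the 12 lowest values, and so was AT1G09310, a gene of unknown function, with 11.8, 7.67, 6.70 and 33.6 RPKM and -2.95 (-3.67 to -2.23).

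In sum, photosynthesis genes and the shoot and seed markers all had their most reads in *arf7*-NAA. Photosynthesis genes and shoot markers had the fewest in *arf7*-Mock, whereas seed markers had more there than in either WT library. The 7 tested root markers had positive values with a median of 0.36, and none was called. The shoot markers, which are themselves photosynthesis genes, had reads for 5 of 6 genes, with 359, 256, 102 and 614 reads in sum, of which *CAB1* gave most, and *LHCB2.1* was at 0 in *arf7*-Mock. The seed markers had reads for 9 of 11 genes, with 2, 2, 11 and 171 reads in sum. *SESA1*, *SESA2*, *SESA3*, *OLEO1*, *EM1* and *PAP85* were at 0 in all libraries but *arf7*-NAA, where *PAP85*, a vicilin storage protein gene, had 66 reads. The part of shoot or seed tissue in these values was not tested, and fewer cells of a type cannot be told apart from less RNA per cell in such samples. The 77 chloroplast genome transcripts with reads, of which 20 were tested, had a median of 0.04. Of these 20, 1 (5%) was called below, beside 1.37% of all tested genes.

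*ICL*, the isocitrate lyase gene of the glyoxylate cycle that seedlings use to turn stored oil into sugar, had 671, 457, 342 and 2274 reads, or 40.8, 28.4, 21.8 and 149 RPKM. *arf7*-NAA was the single high library, and the interaction was -3.30 (-3.54 to -3.06). It was the only call (7.14%) among 14 tested genes of the glyoxylate cycle and fatty acid breakdown (18 listed). Over all tested genes 1.37% were called below, and the list median was -0.18. *PKT3*, with the most reads of this list, was at -0.45. *LTP2*, a lipid transfer protein gene, had 70.6, 95, 18.2 and 90.3 RPKM, with *arf7*-Mock the single low library, and -1.88 (-2.27 to -1.50).

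Sugar starvation genes had 1 call (9.09% of 11 tested), *DIN2* with 7.33, 2.73, 3.23 and 4.57 RPKM and -1.93 (-2.70 to -1.16). Their median was -0.35. Over all tested genes 1.37% were called below and 2.05% above. Of 8 tested flavonoid genes none was called. *TT4*, chalcone synthase, had 9218, 5307, 21387 and 20945 reads, higher in both *arf7* libraries, and -0.78. No member was called among 10 circadian clock genes (median -0.07), 16 core cell cycle genes (-0.01), 37 histone genes (-0.06), 18 aquaporin genes (0.28) or 11 cysteine-rich receptor kinase genes (-0.09). Of 286 ribosomal protein genes 1 was called above, AT5G59240 at 1.03 (0.20 to 1.86), with a family median of -0.04.

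**Figure D3:**
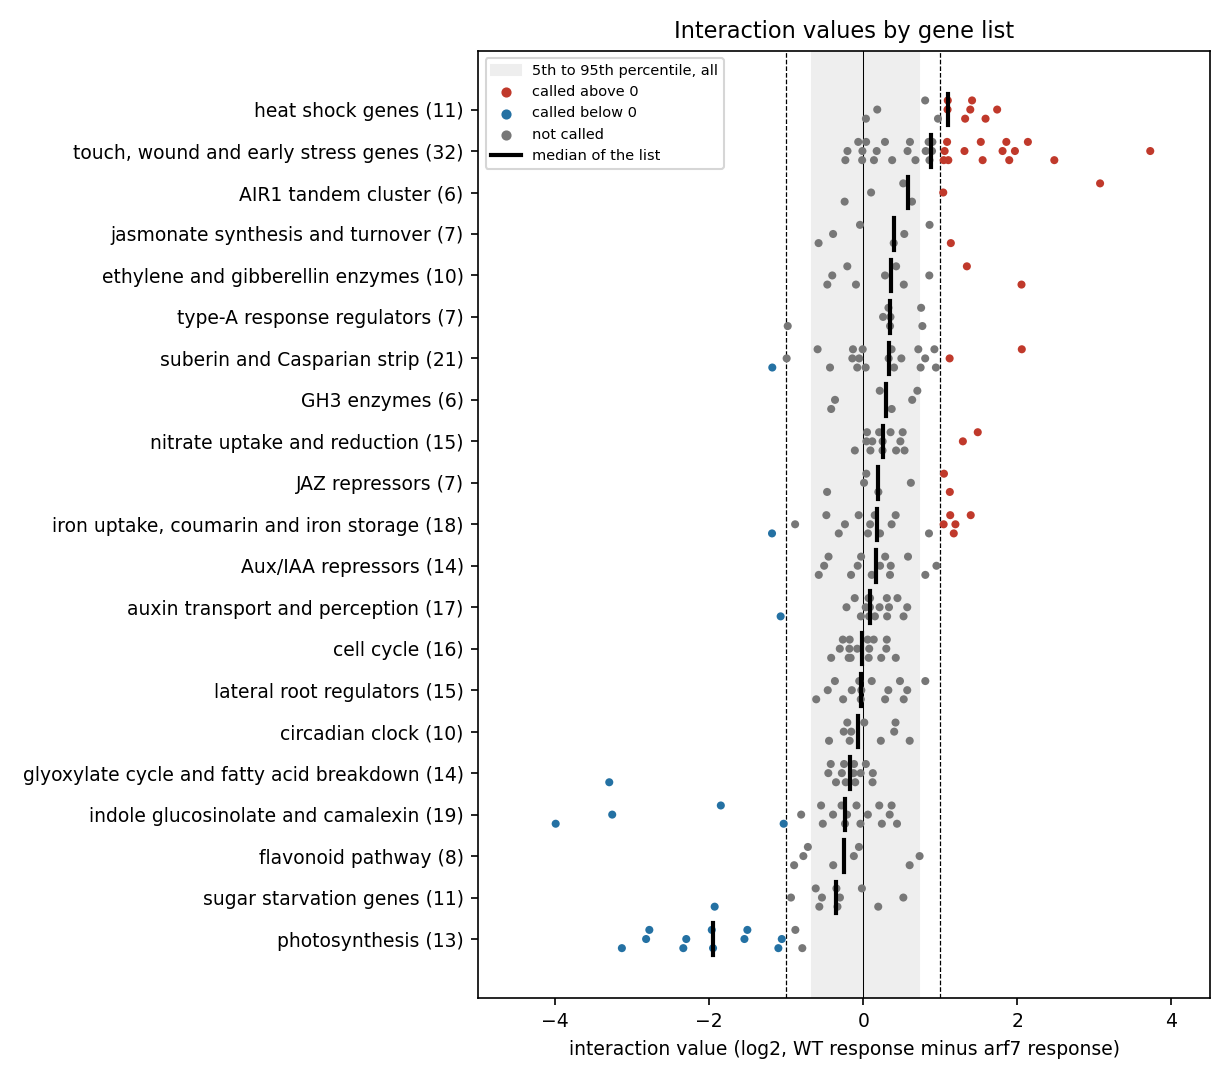
Interaction values (x axis, log2) of the tested members of each gene list, with the number of tested members in brackets, the list median as a black bar and the 5th to 95th percentile of all tested models in grey (-0.66 to 0.73). Heat shock genes (median 1.1) and touch, wound and early stress genes (0.88) lie to the right, photosynthesis genes (-1.95) to the left, and the Aux/IAA, GH3 and lateral root lists have medians of 0.16, 0.29 and -0.03 and no call.

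Transcription factor families, collected here by words in the gene annotation and so not complete, were called in both directions. For comparison, 2.05% of all tested genes were called above and 1.37% below. The 50 tested genes found as AP2/ERF factors leave out *RRTF1* (3.73) and *ERF11* (1.90), whose annotation is worded otherwise. Of these 50 genes 4 were called above and 3 below, the latter being *ERF53* with 13.0, 2.72, 11.6 and 7.17 RPKM (-1.57), *RAP2.9* (-1.52) and AT5G61590 (-1.48). Of 66 MYB genes 5 were called above, with *MYB77* the highest at 1.69 (1.16 to 2.22). The MYB77 protein is known to interact with ARF7 in lateral root growth, and its gene had 96, 185, 135 and 80 reads. *MYB93*, a negative regulator of lateral roots in the endodermis, had 150, 93.0, 108 and 144 RPKM and was called below at -1.1 (-1.28 to -0.92). Of 42 WRKY genes 3 were called above, *WRKY40*, *WRKY46* and *WRKY48* (1.06), but the family median was -0.07. Of 57 bHLH genes 6 (10.5%) were called above and none below, led by AT4G37850 (1.86). Of 38 NAC genes found in this way 1 was called above, *NAC100* (1.28), beside *NAC007* (1.04), which the words leave out, and 3 below, *NAC3* (AT3G15500, -1.76), *NAC003* (-1.59) and *NAC010* (-1.38).

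Among enzyme families, 3 of 75 UDP-glycosyltransferase genes (4%) were called above and 1 (1.33%) below, beside 2.05% and 1.37% of all tested genes. AT5G38010 was the highest of them at 1.31, and *UGT73D1* was called below at -1.04. Of 38 glutathione S-transferase genes only *GSTU20* (2.63%) was called, at 1.49. Of 46 genes found by their annotation as peroxidases 3 were called above, led by AT2G18150 (1.68), and 1 below. The latter is *DOX1*, an alpha-dioxygenase and not a class III peroxidase, with 622, 451, 477 and 792 RPKM and -1.20 (-1.26 to -1.14). Of 35 genes annotated as lipid transfer or 2S albumin-like proteins, which leave out *AIR1* (3.08), 4 were called above, at values up to 1.1 in AT5G01870, and 2 below.

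How much of a value is counting error depended on depth. For models with a mean of 20 to 50 reads the spread of the interaction values (scaled median absolute deviation) was 0.53 and the median counting error 0.49, so most of the spread there was of the size that counting gives. For models with over 2000 reads the spread was 0.20 and the counting error 0.05. In every depth group the spread was above the counting error, for example 0.47 against 0.35 at 50 to 100 reads. How much of this excess would recur between replicates was not measured. Called models had a median lowest count of 64 reads above and 43.5 below. At the edge of the rule, 128 models had exactly 20 reads in their lowest library, with a median of 0.003 and 5th to 95th percentiles of -1.23 to 1.03, and 121 models just outside, with 19 reads, had 0.002 and -1.09 to 0.98.

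**Figure D4:**
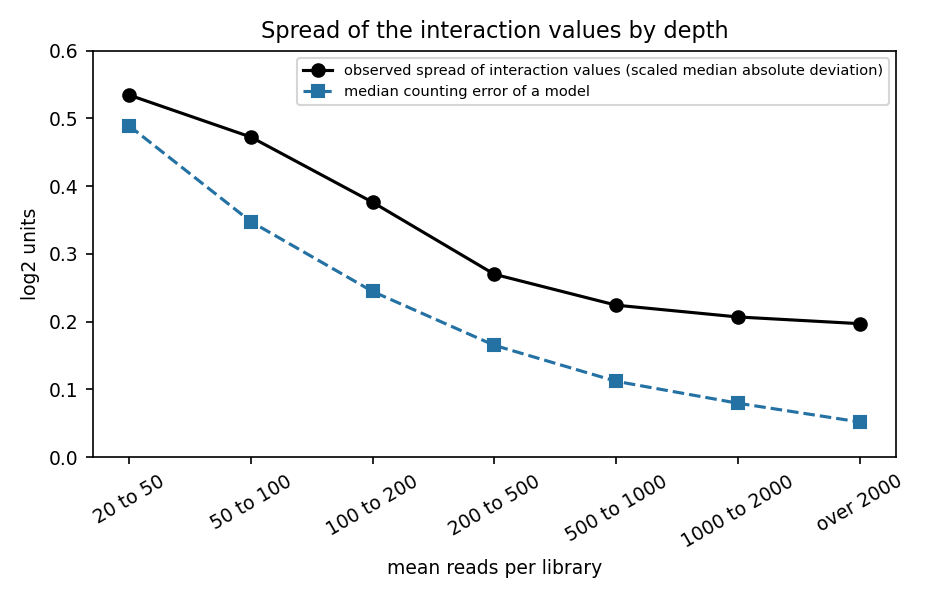
Spread of the interaction values (black, log2 units) and median counting error of a model (blue) for tested models grouped by mean reads per library. Both fall with depth, but the spread levels off near 0.20 while the counting error goes on to 0.05.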

How the data were processed

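Root RNA of 8-day-old WT and *arf7* seedlings, with or without NAA, was sequenced on an Illumina HiSeq 2000, with 1 library per condition and 7571027 and 7416200 reads in WT-Mock and WT-NAA and 7230317 and 7026529 in the same treatments of *arf7*. For each library the authors deposited the count of uniquely assigned reads of each transcript model and its RPKM. The aligner is not given in the sources used here. The 4 comparison tables, which hold the authors' log2 ratios, p-values and false discovery rates and 16 per-sample columns, were not used.

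From the counts, interaction values (log2) and their 95% counting intervals (Poisson variance, the sum of 1/reads over the 4 libraries) were calculated with NumPy 2.4.6 and pandas 2.3.3 under Python 3.11.15. PCR duplicates are not separated, so intervals cover counting error only. Without replicates a fit has no residual degrees of freedom, so edgeR's quasi-likelihood test was not possible and no p-value is given. The code was tested on simulated data. In 24 lists by gene ID and 23 by annotation a gene was represented by its model with the most reads. The members, lists and tests were chosen with earlier results of these data known. Named genes are the 12 highest and 12 lowest called models, the highest and lowest called member and the member with the most reads of each list, *ARF7* and *PRH1*. All other named genes, the motifs CGCGTT and GATAAG and the aliphatic glucosinolate list were chosen after their values were seen. All 451 listed IDs were found in RefSeq. Of 26362 models compared, 26354 lie on a TAIR10.1 gene with that ID, so the promoter windows were read from TAIR10.1.

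Alternatives were edgeR 4.0.16 TMM and DESeq2 1.42.0 size factors (R 4.3.3), 5 reads added, other minimum counts, an assumed biological coefficient of variation and reads summed per gene.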

Additional observations from a re-analysis of the deposited data

Results flagged for a closer look

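Models whose NAA responses were opposite in WT and *arf7*, with the counting interval of each arm off 0, are listed here. The difference between the genotypes was not tested, since each condition had 1 library. A call rests on the difference of the arms, so opposite arms are favoured by the selection itself. There were 132 such models called above 0 and 62 called below 0. Among the 12 highest interaction values all 12 met this description, namely *RRTF1* (3.73), AT1G50750 (3.42), *RTFL12* (3.32), *AIR1* (3.08), AT4G27654 (2.88), *NUDT21* (2.82), *MAM1* (2.58), *CAF1a* (2.53), AT2G30020 (2.51), AT4G27280 (2.49), *WRKY40* (2.48) and AT4G29780 (2.47). Among the 12 lowest, 7 did, namely *ICL* (-3.30), *CAB1* (-3.13), AT1G09310 (-2.95), *LHCB5* (-2.82), *LHCA2* (-2.78), *PSBY* (-2.77) and *DRT112* (-2.30). The other 5, *CYP81F2*, *IGMT2*, *GAPB*, *CYP71B3* and *PSAD-1*, had an arm whose interval held 0 or arms of the same sign.

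Outside the 20-read rule, seed marker genes had 171 reads in *arf7*-NAA, against 2 in WT-Mock, 2 in WT-NAA and 11 in *arf7*-Mock.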

How the results depend on the processing

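No call among the 280 above and 190 below 0 changed direction under any alternative, but this was largely fixed in advance. Other minimum counts and an assumed coefficient of variation leave each value unchanged. The median of all values moved only from -0.001 to -0.009 with TMM factors and to -0.006 with DESeq2 size factors. The lack of reversals therefore says nothing about directions in other libraries. TMM factors kept 275 and 190 of these calls, DESeq2 size factors 276 and 190, and 5 added reads 235 and 156. The counts themselves moved by over 1.5 times in some settings. With at least 10 reads in every library 309 models were called below, and with at least 50 reads 168 above and 84 below. An assumed biological coefficient of variation of 0.2 gave 117 and 80, and 0.4 gave 16 and 9. In the lists, a coefficient of 0.4 left 2 touch, wound and early stress genes, 0 heat shock genes, 3 photosynthesis genes and 2 indole glucosinolate genes, a coefficient of 0.2 or 0.4 left 1 gene of the *AIR1* cluster and 0 iron genes in either direction, and 0.1, 0.2 and 0.4 left 1, 0 and 0 JAZ genes. With at least 50 reads, 6 photosynthesis genes (median -1.54), 2 indole glucosinolate genes and 0 JAZ genes were called, and the median of the lateral root regulators was 0.20. With a mean of at least 20 reads and 5 reads added, that median was 0.19 and the touch, wound and early stress median 1.04, and 5 added reads alone left 1 JAZ gene. These changes follow from the construction of the settings, which test other genes, shrink values that rest on few reads or widen the intervals. Of 601 values for 63 named models under the alternatives, 530 kept their call, 71 lost it and 0 reversed. The lack of reversals was again largely fixed by the settings. Leaving out a library was not possible. No paired analysis was possible because the conditions share only replicate number 1. Depth limits genes such as *PRH1* and *ARF7*, which stayed under 20 reads in at least 1 library.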

Other observations

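Aliphatic glucosinolates are methionine-derived defence compounds made by a chain of enzymes from side chain elongation to the glucosinolate core. Their genes were looked at after *MAM1* was seen among the highest values, so the list is a description chosen after its values were seen. Of 16 listed genes 11 were tested, and 6 were called above 0 and none below, beside 2.05% and 1.37% of all tested genes. In this list 10 values were positive and the median was 1.08. The aminotransferase gene *BCAT4*, at the entry of side chain elongation, had 6.48, 9.67, 16.3 and 6.04 RPKM (WT without and with NAA, then *arf7* without and with NAA). Its highest level was in *arf7*-Mock, and its interaction value was 2.01 (95% counting interval 1.39 to 2.63). The side chain elongation gene *MAM3* was at 1.08 (0.84 to 1.31), and the core genes *CYP79F2* (1.80), *CYP83A1* (1.66) and *GSTU20* (1.49) were called as well. The sulfotransferase gene *SOT17* (-0.39) and the isomerase gene *IIL1* (0.13), which also serves leucine synthesis, were not. The indole branch, whose modification genes *CYP81F2* and *IGMT2* had the lowest values of that branch, had a median of -0.24 over its 19 tested genes.

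A run of neighbouring short genes of unknown function on chromosome 4 was called as a group. AT4G27652 had 53.2, 104, 86.6 and 50.2 RPKM and an interaction of 1.76, AT4G27654 had 5.75, 26.0, 13.5 and 8.27 RPKM and 2.88, and AT4G27657 had 24.3, 49.9, 39.5 and 27.4 RPKM and 1.57. In all 3 WT-NAA was the highest library. They were chosen after their values were seen.

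Called genes had fewer exons than the tested genes as a whole. Genes with a single exon made up 15.3% of 13371 tested protein-coding genes, 38.2% of 275 called above and 27.3% of 183 called below. Among the 14 called touch, wound and early stress genes 9 (64.3%) had a single exon. The median gene span was 2400 bp over all tested genes, 1779 bp among those called above and 1847 bp among those called below.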
